A study of Mus musculus with 8 samples.

Results

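Expression of the autosomal genes was compared between XiΔXist and WT mouse embryonic fibroblasts (MEFs), adding up the reads of both alleles of each gene. Genes of chromosomes 1 to 19 entered the comparison when the WT and XiΔXist pools together held at least 50 allelic reads. This was the case for 10315 of 40935 autosomal gene IDs, in a table of 46078 IDs, and 8567 of the 10315 are protein-coding. Both lines are female and labelled 129S1/SvImJ x CAST/EiJ, although the study's text names 129Sv4/Jae as the source of the 129 X, and the X chromosome of 129 origin is the inactive one. WT cells carry an intact Xist, whereas XiΔXist cells carry a deletion of Xist on the inactive X. Both were untreated. Each is a clonal line, so that an effect of the deletion and a difference between clones cannot be told apart. The labels list 2 replicates of each group, but each deposited column holds the replicates pooled. No replicate spread exists, no test between the groups was possible, and every interval given here covers counting error only.

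The WT pool held 18745483 autosomal allelic reads and the XiΔXist pool 21342574. Reads were scaled to the pool's autosomal total and expressed as CPM, the reads per 1000000 autosomal reads. A change was expressed as the log2 ratio of XiΔXist to WT after 1 CPM was added to each, and calls were made on it. The fold of a gene read in both pools, and its counting interval, use CPM without this addition. Where a pool has few reads of a gene, the fold is therefore larger than the log2 ratio implies. Pde3b, for example, had a log2 ratio of 6.20 and a fold of 301. The deleted gene was checked first. Xist had 35405 reads in WT, of which 35256 came from the 129 allele, and 21 in XiΔXist, so the pools matched their labels. A further pair of pools came from XiΔXist cells that carried a scrambled hairpin (shSCR) or hairpins against YY1 (shYY1), delivered by lentivirus. They held 1470870 and 1472083 autosomal reads, and their levels are only set beside the others. Only reads that cover a position at which the strains differ are counted, so a CPM value depends on how many such positions a gene has, and levels are not compared between genes.

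Xist RNA coats the X chromosome from which it is transcribed and recruits silencing proteins there, and thus acts in cis. Embryonic fibroblasts are connective tissue cells that build the extracellular matrix from collagens, glycoproteins and proteoglycans, and remodel it with proteases whose activity is held back by inhibitors. They also send out growth factors, chemokines and cytokines, and they keep a memory of their place in the embryo in the expression of Hox and other homeobox genes. Imprinted genes, which are expressed from the maternal or the paternal copy alone, are a further group of autosomal genes under epigenetic control.

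XiΔXist fibroblasts differed from WT in matrix genes, secreted factors and regulators of position, whereas no gene of the S-phase, mitotic, ribosomal and oxidative phosphorylation lists was past 2-fold. The oxidative phosphorylation list did not include Cox7c, a subunit of cytochrome c oxidase, which was 28.5-fold higher. Metalloproteinase genes of the stromelysin and collagenase type, the alarmin Il33 with its receptor Il1rl1, the matrix phosphoprotein Spp1 and ligands of the epidermal growth factor (EGF) receptor were higher. Of 16 collagen genes 8, the metalloproteinase inhibitor Timp3, fibulin 3 (Efemp1), the growth factor Ptn with its receptor Ptprz1, the contractile gene Acta2, protocadherins of the beta cluster and several imprinted genes were lower. Of the 10315 genes, 346 were higher by at least 2-fold (3.35%) and 639 lower by at least 2-fold (6.19%), 9.55% together. By a threshold of 4-fold there were 103 and 255 genes. Over all tested genes, the 95% counting interval of the ratio without the added CPM lay wholly past 2-fold for 294 higher and 559 lower genes. These counts were not restricted to the 346 and 639. In bulk RNA, fewer cells of a type and less RNA per cell cannot be told apart.

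The median log2 ratio over all tested genes was -0.08 and the central 90% of genes lay between -1.19 and 0.78, which reaches farther on the lower side. Median-of-ratios scaling (DESeq2), chosen as an alternative, moved the median to 0.04 and gave 426 higher and 568 lower genes. Within 1.5-fold of equality lay 8184 genes (79.3%). The higher genes took 6.75% of the XiΔXist reads and 1.8% of the WT reads. The lower genes took 6.48% of the WT reads and 1.83% of the XiΔXist reads, so that similar shares of the allelic reads lay in each set. No read was found in XiΔXist for 52 of the 639 lower genes, and no read in WT for 6 of the 346 higher ones. A limit of 3 reads or fewer was met by 89 and 19 genes.

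**Figure D1:**
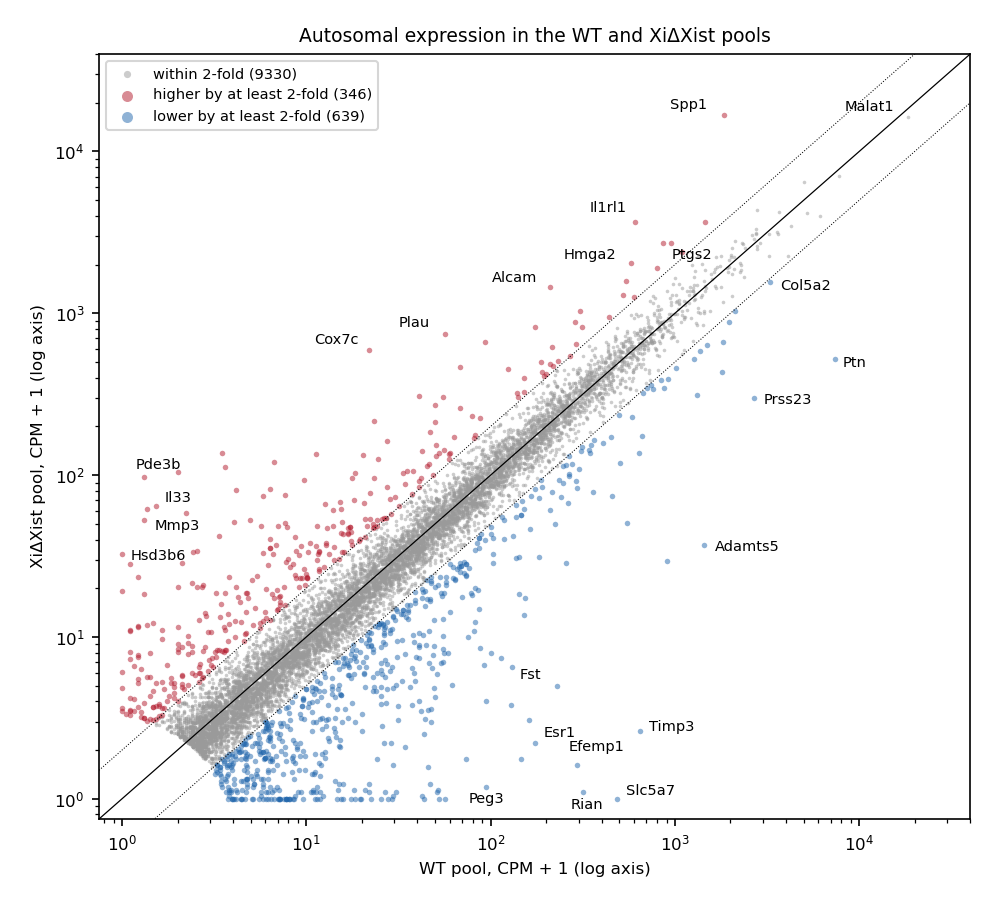
Level of each of the 10315 tested autosomal genes in the WT pool (horizontal) and the XiΔXist pool (vertical), in CPM + 1 on log axes; red points are the 346 genes higher and blue points the 639 genes lower by at least 2-fold, the solid line marks equality and the dotted lines 2-fold. Spp1 has the largest gain in CPM, and the row of blue points along the lower edge holds genes with no or very few reads in XiΔXist.

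The cells were then checked against markers. Of 14 fibroblast markers, 11 passed the minimum of reads. The mesenchymal filament gene Vim had 79563 and 74287 reads in WT and XiΔXist and the mesenchymal homeobox gene Prrx1 51823 and 70536 reads. Fibronectin (Fn1) had 5125 and 6150 reads, so these genes were expressed in both pools. Of the other members, 3 were under the minimum and 1 of those had no read in either pool. These genes were picked from the list, and cell identity was not tested. Within this list Dcn, a small proteoglycan, was 3.15-fold higher (95% counting interval 2.88 to 3.45) and the surface glycoprotein Thy1 was 2.98-fold higher (95% counting interval 2.54 to 3.51), while Fbn1, Col1a1 and Col1a2 were lower. On the 129 allele alone the log2 ratio of Dcn was 0.25 and on the CAST allele alone 2.06, so its call rests on the CAST reads. The summed level of the list was 9702 CPM in WT and 8463 CPM in XiΔXist.

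Few markers of other cell types were read in depth. In all, 1 of 22 skeletal muscle markers, 1 of 19 blood cell markers and 2 of 20 epithelial markers reached 50 reads. The epithelial pair went in opposite directions, with 42 and 138 reads for the tight junction gene Cldn1 and 252 and 30 reads for desmoplakin (Dsp). The muscle regulators Myod1 and Myog, the epithelial keratins Krt8 and Krt18, the myeloid factor Spi1 and the pluripotency genes Pou5f1 and Nanog had no read in either pool. Summed levels in WT and XiΔXist were 8.75 and 11.6 CPM for the muscle list, 18.8 and 8.62 CPM for the epithelial list, and 3.25 and 4.45 CPM for the blood list. They were 530.2 and 436 CPM for the neural and glial list, and 663 and 2138 CPM for the pluripotency and germline list, where Hmga2 and Igf2bp1 held nearly all reads.

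In the endothelial and mural list, 4 of 20 markers were tested and 3 of these were lower in XiΔXist. They were the adhesion receptor Mcam (762 and 53 reads), the vascular endothelial growth factor receptor Flt1 (721 and 138 reads) and its relative Kdr (55 and 0 reads). The fourth, the endothelial cadherin Cdh5, had 12 and 47 reads and a log2 ratio of 0.97, which passed 2-fold with TMM or median-of-ratios scaling. The list's sum went from 84.8 to 12.7 CPM, while Pecam1 had 0 and 1 reads, and Vwf, Tie1 and Sox17 had none. Of the neural and glial list, 5 of 25 were tested, among them Map2 (2186 and 838 reads) and Tubb3 (87 and 20 reads), which were lower, whereas Sox10 and Olig2 had no read. In the pluripotency and germline list Hmga2, an architectural chromatin protein also made in embryonic fibroblasts, was 3.56-fold higher (95% counting interval 3.48 to 3.63) and Lin28b had 46 and 5 reads. Whether any of these marker differences come from another cell type was not tested.

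The protein-coding genes with the 15 largest rises lie on 10 chromosomes and had log2 ratios from 4.16 to 6.20. Pde3b, a phosphodiesterase that degrades cyclic AMP (chr7:114415281-114539251), had 6 reads in WT and 2053 in XiΔXist, or 0.32 and 96.2 CPM, and was 301-fold higher (95% counting interval 138 to 819.9). Apold1, an apolipoprotein L domain protein, went from 19 to 2217 reads and was 102-fold higher (95% counting interval 65.5 to 171). Il33, an alarmin cytokine of the interleukin 1 family (chr19:29925114-29960718), had 10 reads in WT and 1358 in XiΔXist and was 119-fold higher (95% counting interval 64.7 to 249). Each of these genes was close to silent in WT and clearly expressed in XiΔXist. Mmp3, the metalloproteinase stromelysin 1 (chr9:7445822-7455975), had 6 reads in WT and 1105 in XiΔXist, all from the 129 allele, and was 162-fold higher (95% counting interval 74.1 to 442). Acpp, an acid phosphatase, had 7 and 1291 reads, Dynap 47 and 2913 reads and the lectin Clec14a 49 and 2358 reads.

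No read of Zic1 or Hsd3b6 was found in WT. Zic1, a zinc finger transcription factor of the dorsal embryo, had 388 reads in XiΔXist, 18.2 CPM, which is at least 114-fold higher when the WT pool is set to the 3 counts that an absent gene could have. Hsd3b6, a steroid dehydrogenase, had 673 reads, at least 197-fold higher by the same limit, but its transcript is close to that of Hsd3b2 and reads could be shared. Adamtsl3, a secreted matrix-associated protein, had 2 reads in WT and 580 in XiΔXist and was 255-fold higher (95% counting interval 70.2 to 2108). The other genes of this set were the cytohesin-binding protein Cytip (23 and 1228 reads), the lysosomal protease Ctsc (59 and 1694 reads), Plac8 (4 and 479 reads), the zinc finger gene Bnc1 (107 and 2540 reads) and Cox7c, a subunit of cytochrome c oxidase (389 and 12628 reads), whose allelic reads are described with its neighbours on chromosome 13.

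The 15 largest falls lie on 11 chromosomes, with log2 ratios from -5.28 to -8.93. Slc5a7, the high-affinity choline transporter (chr17:54273590-54299034), had 9112 reads in WT, 486 CPM, and none in XiΔXist, which is at least 3458-fold lower. Timp3, an inhibitor of metalloproteinases that binds the matrix (chr10:86300372-86349506), had 12170 reads in WT and 35 in XiΔXist, or 649 and 1.64 CPM, and was 396-fold lower (95% counting interval 284 to 569). Efemp1, which encodes the matrix glycoprotein fibulin 3 (chr11:28853204-28926743), had 5512 reads in WT and 13 in XiΔXist and was 483-fold lower (95% counting interval 282 to 907). Each had many reads in WT and few or none in XiΔXist. Timp3 lies within the span of Syn3 and so overlaps another gene. Adamts5, an aggrecan-degrading protease, went from 1444 to 36.1 CPM and was 40.0-fold lower (95% counting interval 37.3 to 43.1).

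Several genes of this set are transcription regulators. Esr1, the estrogen receptor alpha, had 3239 reads in WT and 26 in XiΔXist, Hoxb9 775 and 1 reads, Sim1, a basic helix-loop-helix factor, 937 and 2 reads, and Peg3, an imprinted zinc finger gene, 1744 and 4 reads. Others act at the cell surface. Ptprz1, a receptor phosphatase that binds pleiotrophin, had 2996 and 44 reads, Cd24a 4270 and 85 reads, the protocadherin Pcdh20 2716 and 16 reads and the teneurin Tenm3 800 and 0 reads. Brinp1 had 1039 and 0 reads, the protease inhibitor Pi15 1363 and 16 reads and the cornified envelope gene Sprr2k 949 and 3 reads. With 1 to 4 reads left in XiΔXist, the sizes of these falls are wide, for example 882-fold with an interval of 158 to 34896 for Hoxb9.

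The hairpin pools, which also come from XiΔXist cells, give further values for these 30 genes and were not tested against the other pools, since they were about an order of magnitude shallower and had been transduced. The 30 genes were picked for their extreme values in untreated XiΔXist, so the choice favours less extreme values in other pools, and by how much was not tested. In shSCR, 14 of the 15 rises stood below untreated XiΔXist and 14 of the 15 falls above it. Of the 15 genes that were high in untreated XiΔXist, 7 had no read in either hairpin pool, among them Il33, Mmp3 and Acpp, where 3 counts would amount to 2.04 CPM in shSCR. Pde3b stood at 6.8 CPM in shSCR and 8.83 in shYY1, Bnc1 at 4.76 CPM in shSCR and 6.79 in shYY1 and Adamtsl3 at 139 CPM in shSCR and 202 in shYY1. Among the genes that were low in untreated XiΔXist, Timp3 stood at 454 CPM in shSCR and 419.8 in shYY1, Efemp1 at 182 CPM in shSCR and 354 in shYY1, Peg3 at 66.6 CPM in shSCR and 67.9 in shYY1 and Slc5a7 at 16.3 CPM in shSCR and 25.1 in shYY1.

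**Figure D2:**
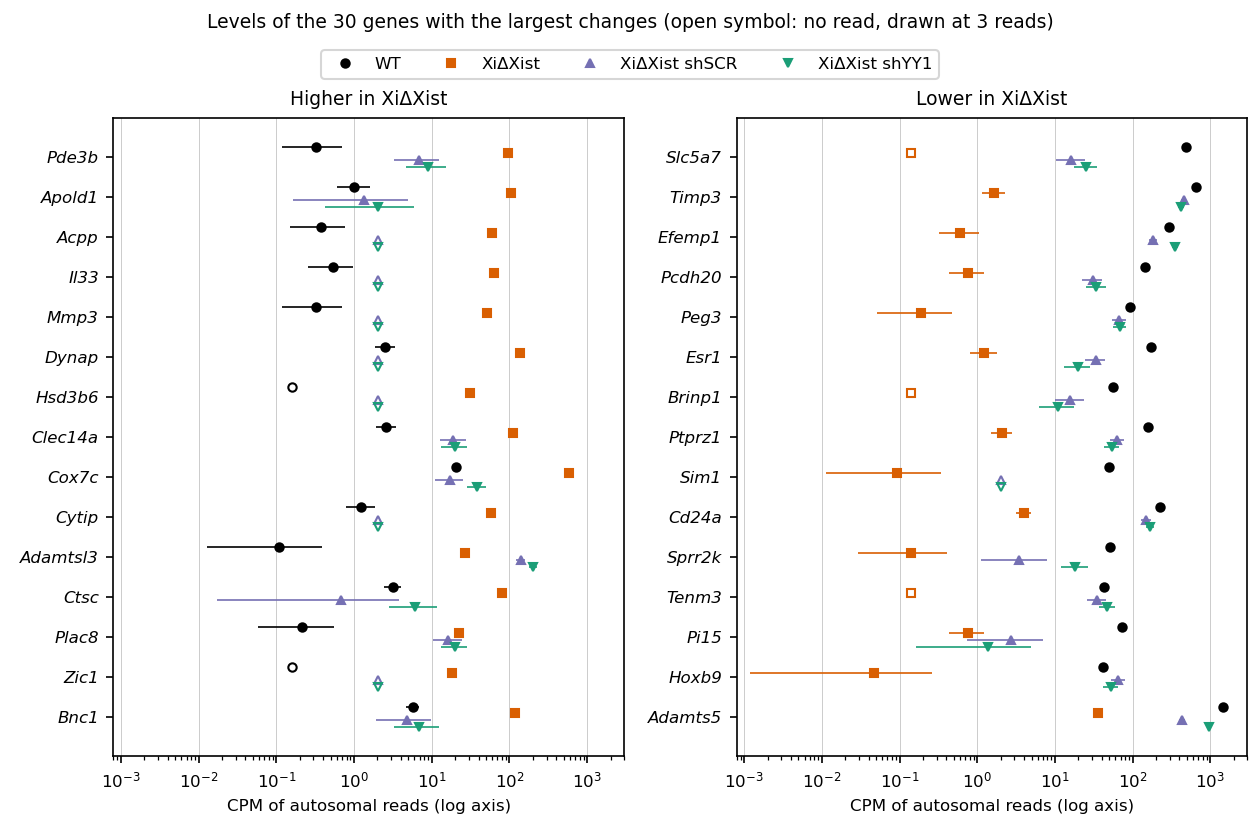
CPM of autosomal reads on a log axis for the 15 protein-coding genes with the largest rises (left) and the 15 with the largest falls (right), in the 4 pools; bars are 95% Poisson intervals of the count, and an open symbol marks a pool with no read, drawn at the level of 3 reads. Untreated XiΔXist (orange) lies to the right of WT (black) in the left panel and to the left of it in the right panel, as the choice of the genes fixes, and the hairpin pools are drawn below them in purple and green.

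To see what the promoters of such genes look like, the RefSeq sequences around the transcription start (GRCm38.p6, 250 bases before and 50 after the start) were read for every gene with an entry, 7068 of the 10315 tested genes. The 250 bases before the start are printed for a gene that was near silent in WT (Mmp3), the interferon-stimulated gene Ifit1, and a CpG-rich and a CpG-poor gene that were near absent in XiΔXist (Timp3 and Slc5a7). Capitals mark the AP-1 letters TGAGTCA and the TATA letters TATAAA in Mmp3, the interferon response letters (GAAA, any 2 bases, then GAAA, on either strand) in Ifit1, CG dinucleotides in Timp3, and both TATAAA and CG in Slc5a7. The printed genes are picked examples and do not stand for their groups. Il33 and Acpp, also near silent in WT, lack the AP-1 letters, whereas Sprr2k, which was lower, has them. Trim25 lacks the interferon response letters and Ifih1 has them.
Mmp3 (chr9:7445572-7445821, plus strand): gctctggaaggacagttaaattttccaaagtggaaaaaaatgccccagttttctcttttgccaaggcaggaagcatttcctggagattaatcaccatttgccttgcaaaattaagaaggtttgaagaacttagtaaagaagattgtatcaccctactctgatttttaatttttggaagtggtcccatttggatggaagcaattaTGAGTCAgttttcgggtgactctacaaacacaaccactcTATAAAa
Ifit1 (chr19:34640639-34640888, plus strand): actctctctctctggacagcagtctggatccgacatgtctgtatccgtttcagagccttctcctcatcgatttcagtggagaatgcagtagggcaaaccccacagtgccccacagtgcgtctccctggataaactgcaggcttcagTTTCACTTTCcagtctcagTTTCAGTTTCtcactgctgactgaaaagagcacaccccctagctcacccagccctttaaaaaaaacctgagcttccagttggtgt
Timp3 (chr10:86300162-86300411, plus strand): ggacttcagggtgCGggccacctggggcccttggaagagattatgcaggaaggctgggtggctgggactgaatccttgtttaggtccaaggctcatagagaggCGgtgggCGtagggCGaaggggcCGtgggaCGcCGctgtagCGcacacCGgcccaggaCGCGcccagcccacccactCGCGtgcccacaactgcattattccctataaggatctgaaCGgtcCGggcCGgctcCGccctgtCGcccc
Slc5a7 (chr17:54299035-54299284, minus strand): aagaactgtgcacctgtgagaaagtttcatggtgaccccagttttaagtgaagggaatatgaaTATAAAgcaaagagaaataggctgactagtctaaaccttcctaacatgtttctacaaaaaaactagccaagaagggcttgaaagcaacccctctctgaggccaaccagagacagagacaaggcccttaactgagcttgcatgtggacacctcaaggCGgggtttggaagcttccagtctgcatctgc
In these 250 bases Timp3 has 18 CG dinucleotides, Ifit1 4, and Mmp3 and Slc5a7 have 1 each.

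Genes called in either direction more often had CpG-poor promoters than the tested genes as a whole. At least 10 CG dinucleotides in the 300 bases were found in 59.6% of 250 promoters of higher genes, 69.5% of 410 of lower genes, 86.5% over all tested genes and 52.4% of all 20626 promoters in the table. The AP-1 letters (TGAGTCA or TGACTCA, which are each other's reverse complement) stood in 31 promoters of higher genes (12.4%), 24 of lower genes (5.85%), 3.48% of all tested genes and 4.78% of all promoters. For the interferon response letters the shares were 6.4%, 3.66%, 2.86% and 3.39%. TATAAA, searched on the sense strand, was found in 11.2%, 8.54%, 4.36% and 8.63%. The letters can overlap each other, a match is not a bound site, and the table has no entry for the other tested genes.

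Among abundant genes, Spp1, Il1rl1, Prkg2, Ptgs2 and Cxcl5 had some of the largest gains in CPM, a measure that favours genes with many positions at which the strains differ. Spp1, the secreted phosphoprotein osteopontin (chr5:104435118-104441050), went from 1842 to 16730.1 CPM and was 9.08-fold higher (95% counting interval 8.98 to 9.18), although the predicted gene Gm42793 overlaps it. Il1rl1, the receptor for Il33, went from 609.6 to 3640.1 CPM, so that ligand and receptor were both higher. The cyclic GMP-dependent kinase Prkg2 was 2.52-fold higher, the prostaglandin synthase Ptgs2 3.16-fold higher and the chemokine Cxcl5 2.88-fold higher. In shSCR, Spp1 stood at 267 CPM and Il1rl1 at 295 CPM.

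By the same measure, Ptn, Prss23, Thbs1, Malat1, Ahnak and Col5a2 had the largest losses. Ptn, the growth factor pleiotrophin (chr6:36714929-36810220), went from 7363 to 522 CPM and was 14.1-fold lower (95% counting interval 13.8 to 14.4), and its receptor Ptprz1 was 77.5-fold lower. The serine protease Prss23 went from 2671 to 298 CPM, but an antisense gene overlaps it. Thrombospondin 1 (Thbs1), the nuclear RNA Malat1 and the scaffold protein Ahnak were within 2-fold, with log2 ratios of -0.62, -0.16 and -0.85. The ratio of Malat1 turned to 0.03 when the chromosome's median was subtracted, so no direction is read from it.

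Functional groups were described with 38 lists. They hold 655 distinct tested genes, of which 72 were higher and 100 lower, and each count below is to be read against 3.35% higher, 6.19% lower and the median of -0.08 over all tested genes. Some genes are on more than 1 list. Of 16 tested collagen genes, 8 were lower and none higher, with a median log2 ratio of -0.90. They were the type I chains Col1a1 and Col1a2, the basement membrane chains Col4a1 and Col4a2, Col5a2, Col6a1, Col6a2 and Col11a1. Col11a1, a fibril-regulating chain, went from 257 to 27.8 CPM. Col4a1 had 8467 reads in WT and 3675 in XiΔXist and Col4a2 647 and 282 reads; these neighbours overlap in the genome. For Col1a1 (532 and 263 reads) the counting interval of the ratio, 1.98 to 2.68, reached below 2. With TMM (edgeR) or median-of-ratios (DESeq2) scaling, 6 of the 16 were lower and none higher. Col3a1, with a log2 ratio of 0.83, lay on the other side of equality. The summed collagen level was 9265 CPM in WT and 4957 in XiΔXist. In the hairpin pools, which also come from XiΔXist cells, it stood at 11802.5 CPM in shSCR and 15118 in shYY1.

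Of the matrix glycoproteins and proteoglycans, 4 were higher and 9 lower among 26 tested, with a median log2 ratio of -0.65. Besides Efemp1, the lower genes were the fibrillins Fbn1 and Fbn2, the fibulins Fbln2 and Fbln5, periostin (Postn), matrix Gla protein (Mgp) and the small proteoglycans Aspn and Ogn. Aspn had 1394 and 193 reads and Fbn2 211 and 1 reads. Postn, a matricellular protein, had 11917 and 2909 reads. The higher genes were Spp1, the laminin chain Lama2 (243 and 1270 reads), Dcn and tenascin C. The list's summed level was 15940.3 CPM in WT and 26332 in XiΔXist, of which Spp1 made up 1842 and 16730.1 CPM.

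Among matrix proteases and their inhibitors, 5 were higher and 5 lower among 26 tested, with a median log2 ratio of -0.23. The called members were as follows. The higher genes were metalloproteinases of the Mmp family (Mmp3, Mmp10, Mmp13 and Mmp19) and Plau, the urokinase that activates plasminogen. Plau went from 55.4 to 746 CPM and was 13.5-fold higher (95% counting interval 12.6 to 14.4). Mmp13, a collagenase, had 8 and 100 reads, Mmp10 4 and 96 reads and Mmp19 144 and 858 reads. The lower genes were the inhibitor Timp3 and 4 proteases of the Adamts family, Adamts5, Adamts1 (1524 and 404 reads), Adamts9 (355 and 50 reads) and Adamts12 (413 and 77 reads).

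Contractile genes, which mark the myofibroblast state, were on the lower side. Of these, 0 were higher and 5 lower among 14 tested, with a median log2 ratio of -0.54, and 13 of the 14 ratios were below equality. Smooth muscle actin (Acta2) had 1020 reads in WT and 195 in XiΔXist and was 5.96-fold lower (95% counting interval 5.1 to 6.98). Myocd, a coactivator of smooth muscle genes, had 90 and 4 reads, transgelin (Tagln) 1003 and 360 reads, Synpo2 227 and 45 reads and the myosin light chain Myl9 45 and 12 reads. The serum response factor Srf, which drives many of these genes, had a log2 ratio of 0.02. In the hairpin pools Acta2 stood at 712 CPM in shSCR and 977 in shYY1.

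**Figure D3:**
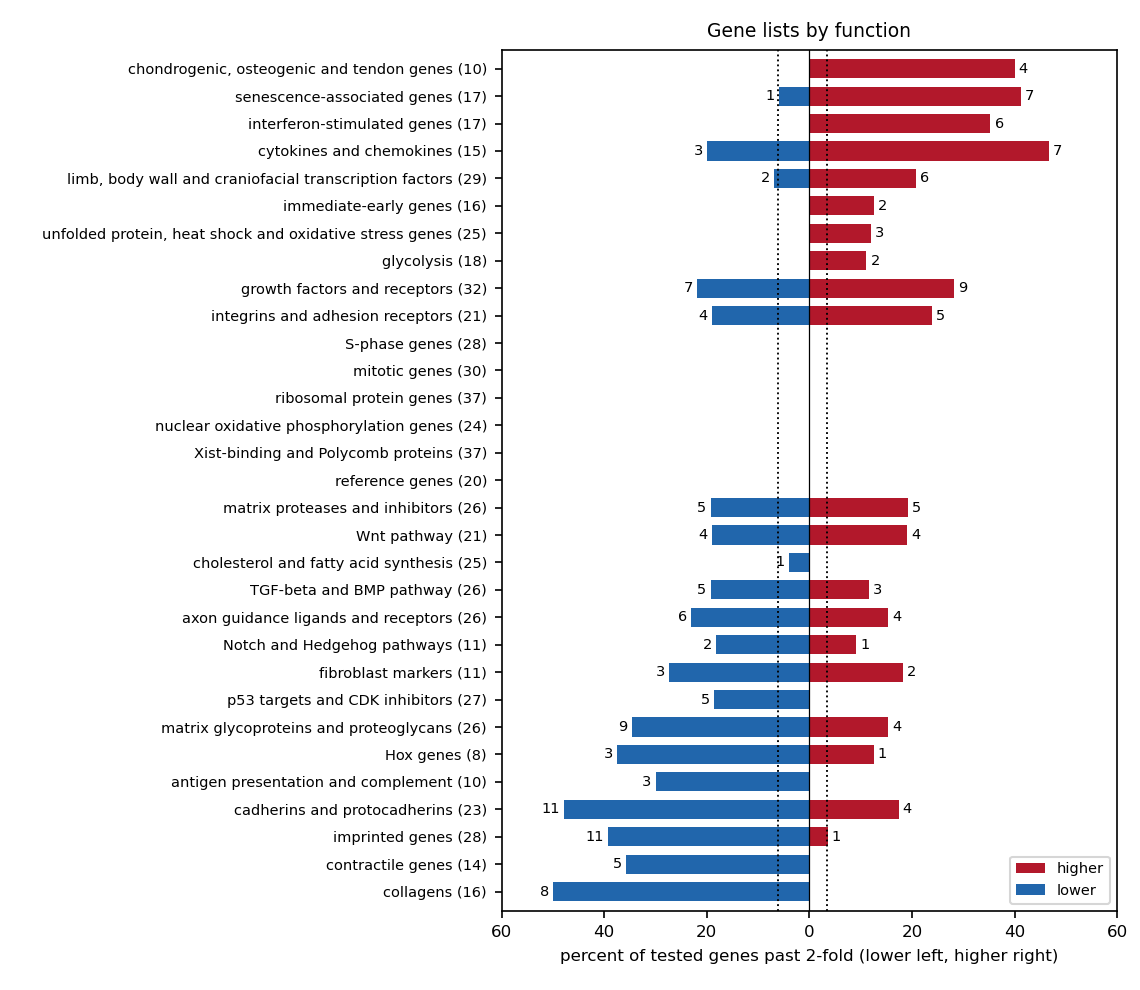
Share of each list's tested genes (number in brackets) that were higher (red, to the right) or lower (blue, to the left) by at least 2-fold in XiΔXist, for lists with 8 or more tested genes; numbers at the bars are gene counts and dotted lines mark the shares over all tested genes, 3.35% and 6.19%. Collagen, cadherin, imprinted and Hox genes reach farthest to the left, cytokine and senescence-associated genes farthest to the right, and cell cycle, ribosomal and oxidative phosphorylation genes have no bar. Cox7c, which was higher, is not on the oxidative phosphorylation list.

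Genes of secreted signals were spread in both directions. Of the growth factors and receptors, 9 were higher and 7 lower among 32 tested, with a median log2 ratio of -0.26. Ligands of the EGF receptor were higher. These were amphiregulin (Areg, 21 and 588 reads, 24.6-fold higher), epiregulin (Ereg, log2 ratio 1.07) and Hbegf (1.10). The fibroblast growth factors Fgf2 (1263 and 5554 reads) and Fgf7 (8189 and 20190 reads), the platelet-derived factor Pdgfc (3480 and 10603 reads) and Vegfa (61 and 353 reads) were higher as well. The lower ligands included Ptn, Pdgfd (1751 and 64 reads), Gas6 (504 and 0 reads, at least 191-fold lower), Vegfc (565 and 181 reads) and Igf1 (830 and 345 reads). The insulin-like growth factor binding proteins were divided, with Igfbp6 lower (114 and 0 reads), and Igfbp5 (4 and 228 reads) and Igfbp4 (11 and 61 reads) higher.

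In the TGF-beta and bone morphogenetic protein (BMP) pathway, 3 were higher and 5 lower among 26 tested, with a median log2 ratio of -0.15. The ligand Tgfb2 had 538 and 13 reads and Ltbp2, a latent TGF-beta binding protein, 1010 and 159 reads, both lower. Secreted antagonists went in opposite directions. Follistatin (Fst), which binds activins, had 2421 reads in WT and 118 in XiΔXist and was 23.4-fold lower (95% counting interval 19.4 to 28.3), and the BMP antagonist Nog had 53 and 2 reads, both lower. The BMP antagonist Grem1 was higher, with 326 and 2180 reads. The TGF-beta target Ccn2 was lower (1412 and 549 reads) and the coreceptor Tgfbr3 higher (1518 and 3741 reads).

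In the Wnt pathway, 4 were higher and 4 lower among 21 tested, with a median log2 ratio of -0.26. The ligand Wnt5a was higher (3742 and 8934 reads), its receptor Ror1 lower (701 and 107 reads), and the receptor Fzd5 just past the threshold at a log2 ratio of 1.00. The R-spondins, which enhance Wnt signals, were divided, with Rspo2 lower (882 and 116 reads) and Rspo3 higher (49 and 157 reads). So were the secreted Dickkopf proteins, with Dkk2 lower (24739 and 6694 reads) and Dkk3 higher (49 and 379 reads), and the antagonist Sfrp1 was lower (91 and 5 reads). Of the Notch and Hedgehog genes, the Notch target Hey2 was lower (938 and 104 reads), as was the Hedgehog effector Gli2 (55 and 13 reads), and the Hedgehog coreceptor Boc was higher (8 and 45 reads). 11 genes of that list were tested, with a median of -0.21.

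Of the cytokines and chemokines, 7 were higher and 3 lower among 15 tested, with a median log2 ratio of 0.33. The higher genes were Il33, its receptor Il1rl1, Il1a (6 and 62 reads), the neutrophil chemokines Cxcl1 (101 and 736 reads) and Cxcl5, Cxcl10 (171 and 482 reads) and the decoy receptor Tnfrsf11b (170 and 472 reads). The lower genes were the monocyte chemokines Ccl2 (2560 and 1365 reads) and Ccl7 (750 and 164 reads) and the stromal chemokine Cxcl12 (12342 and 3678 reads). Tnfsf11, the osteoclast factor RANKL that Tnfrsf11b binds, was 15.3-fold higher (95% counting interval 12.5 to 18.9). It is on the list of chondrogenic, osteogenic and tendon genes, where 4 were higher and 0 lower among 10 tested, with a median log2 ratio of 0.55. The other higher genes of that list were Spp1, Tnfrsf11b and the tendon regulator Mkx (221 and 773 reads).

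Interferon-stimulated genes had the median farthest above that of all genes among lists with at least 8 tested members, 0.74. Of the 17 tested, 6 were higher and none lower. They were Ifit1 (218 and 1394 reads, 5.62-fold higher), the RNA sensor Ifih1 (156 and 760 reads), the ubiquitin ligase Trim25 (90 and 682 reads), Ifi27 (275 and 1067 reads), Gbp3 (80 and 303 reads) and Mx2 (10 and 89 reads). The transcription factors Stat2 and Irf9 of this response were not past 2-fold, with log2 ratios of 0.26 and 0.84, the latter above the list's median. Ifit2 was at -0.07. A further 23 listed genes had too few reads, among them Isg15 (2 and 21 reads), Oas1a and Oas2 (no read). Of 10 antigen presentation and complement genes 3 were lower, among them the complement regulator Cd55 (142 and 0 reads) and the protease C1s1 (118 and 21 reads), which has a near-identical copy.

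Of the senescence-associated genes, 7 were higher and 1 lower among 17 tested, with a median log2 ratio of 0.38. The higher members were Mmp3, Mmp13, Plau, Cxcl1, Cxcl5, Il1a and Igfbp5, all but Igfbp5 on a protease or cytokine list as well. Ccl2 was lower, here and on the cytokine list, but not past 2-fold with TMM or median-of-ratios scaling. None of 28 S-phase genes and none of 30 mitotic genes was past 2-fold, with medians of 0.01 and -0.02 and ranges of -0.54 to 0.60 and -0.70 to 0.59. Of 27 p53 targets and cell cycle inhibitors, 5 were lower and none higher. They include the cyclin-dependent kinase inhibitor Cdkn1c (90 and 0 reads) and the p53 target Perp (114 and 3 reads), but also Ccnd1 (860 and 346 reads) and Cdk6 (6464 and 2913 reads), a cyclin and a kinase that promote cell cycle entry, and the kinase Plk2 (1901 and 852 reads).

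Groups of basic cell function lay close to equality. No gene was past 2-fold among 37 ribosomal protein genes (median -0.04), 24 nuclear genes of oxidative phosphorylation (-0.06, a list without Cox7c), 20 reference genes (-0.15) and 37 genes of Xist-binding and Polycomb proteins (-0.10). The last list ranged from -0.94 for Phf19 to 0.92 for Cbx8, with Ezh2 at -0.18, Hnrnpk at 0.27 and Yy1 at -0.04. The medians of the ribosomal, oxidative phosphorylation, Xist-binding and Polycomb, p53, mitotic, S-phase, integrin and fibroblast lists changed sign under other scalings, so no direction is read from them. With median-of-ratios scaling 1 gene of the Xist-binding and Polycomb list was past 2-fold.

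Some stress and metabolic genes were past 2-fold. Among 16 immediate-early genes the phosphatase Dusp6 (2826 and 8532 reads) and Egr2 (68 and 201 reads) were higher, although the counting interval for Egr2 began at 1.96. Among stress genes the metallothionein Mt1 (242 and 1018 reads) and the antioxidant genes Nqo1 (173 and 689 reads) and Srxn1 (31 and 107 reads) were higher, 3 of 25. In the glycolysis list, of 18 tested, the pyruvate dehydrogenase kinase Pdk1 (268 and 1428 reads) and the mitophagy gene Bnip3 (202 and 690 reads) were higher, neither of which is a glycolytic enzyme, and Bnip3 has a near-identical copy. Of 25 genes of cholesterol and fatty acid synthesis, Mvk alone was lower (56 and 14 reads). Of 4 tested adipogenic genes, Fabp4 was higher (16 and 98 reads) and the lipase Lpl lower (3928 and 1280 reads), but its CAST reads alone gave a log2 ratio of 0.50.

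Position-associated transcription factors differed between the lines. Of 8 tested Hox genes, the more posterior genes Hoxb7 (484 and 2 reads), Hoxb9 (775 and 1 reads) and Hoxc10 (128 and 0 reads) were lower and the anterior gene Hoxa2 was higher (48 and 225 reads). The remaining tested members, among them Hoxd8 (0.33) and Hoxb4 (0.43), were within 2-fold. Further Hox genes had too few reads to be tested, such as Hoxc8 (40 and 0 reads), Hoxb5 (26 and 0 reads) and Hoxc9 (23 and 0 reads). In the hairpin pools Hoxb9 stood at 65.3 CPM in shSCR and 52.3 in shYY1. Of the limb, body wall and craniofacial factors, 6 were higher and 2 lower among 29 tested, with a median log2 ratio of 0.26. Higher were Zic1, the LIM homeobox gene Lhx9 (129 and 999 reads), the forkhead genes Foxd1 (220 and 786 reads), Foxf1 (5 and 47 reads) and Foxf2 (34 and 163 reads), and Twist2 (927 and 3248 reads). Lower were Gata6 (259 and 3 reads, 98.3-fold lower) and Pax9 (88 and 1 reads).

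Among genes of cell contact, protocadherins stood on the lower side. Of cadherins and protocadherins, 4 were higher and 11 lower among 23 tested, with a median log2 ratio of -0.98. The lower genes include 7 of the beta cluster on chromosome 18, such as Pcdhb20 (798 and 32 reads) and Pcdhb16 (841 and 54 reads), and the classical cadherin Cdh3 (279 and 0 reads). They also include Pcdh10, Pcdh18 and Cdh18. Of the 4 higher genes, Cdh6 had the largest ratio (4 and 224 reads), and the others were Pcdh7, Pcdh17 and Pcdhgb8. Of integrins and adhesion receptors, 5 were higher and 4 lower among 21 tested, with a median log2 ratio of -0.08. The collagen receptor chain Itga2 was 11.3-fold higher (95% counting interval 9.38 to 13.6), Alcam 6.98-fold higher, Itgb3 had 46 and 322 reads and Gpc1 30 and 251 reads, all higher, whereas Mcam, Cd34 (574 and 44 reads), Itga8 (327 and 42 reads) and Sdc2 (18872 and 9716 reads) were lower.

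Of the axon guidance genes, 4 were higher and 6 lower among 26 tested, with a median log2 ratio of -0.22. The ligand Sema3d went from 551 to 49.3 CPM and Sema3a had 15739 and 8279 reads, both lower. Of the receptors, the netrin receptor Unc5c (1862 and 148 reads), Robo1 (355 and 35 reads), Epha4 (190 and 10 reads) and Epha7 (193 and 42 reads) were lower, while the semaphorin coreceptor Nrp2 (853 and 2495 reads) and Plxna4 (10 and 58 reads) were higher. The higher ligands were Sema7a (8 and 148 reads) and Sema6d (43 and 156 reads).

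Imprinted genes had 11 lower members and 1 higher among 28 tested, with a median of -0.66. The maternally expressed noncoding RNAs of the cluster on chromosome 12 were close to absent in XiΔXist. Rian (chr12:109603940-109661716) had 5904 reads in WT and 2 in XiΔXist, and was 3361-fold lower (95% counting interval 930.0 to 27759). Meg3 had 161 and 0 reads and Mirg 112 and 4 reads. In WT 99.8% of the Rian reads and 99.1% of the Mirg reads came from the 129 allele, on a chromosome where 336 of 368 tested genes were read from both alleles. All 3 RNAs had no read in the hairpin pools. The paternally expressed Peg3 (1744 to 4 reads) differed in this, at 66.6 CPM in shSCR and 67.9 in shYY1. Further lower genes were the adaptor Grb10 (1031 and 148 reads), Nnat (200 and 14 reads), Sfmbt2 (515 and 111 reads), Cdkn1c, Ppp1r9a, Peg13 and Asb4, and Snrpn was higher (31 and 123 reads). Others were near equality, such as Impact (0.34), Igf2r (0.09) and Ube3a (-0.19). Overlapping small RNA genes lie within Rian and Meg3.

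The called genes were not spread evenly over the chromosomes. Lower genes made up 13.6% of the 506 tested genes of chromosome 8 (69 genes), against between 2.22% (chromosome 14) and 8.56% (chromosome 3) on the other autosomes. Higher genes made up 7.78% of chromosome 14 (28 of 360) and between 1.49% and 5.47% of the others. Among genes read from both alleles, the median 129 share on chromosome 14 was 61.6% in WT and 51.0% in XiΔXist. It was 65.5% and 52.5% on chromosome 5, 35.3% and 51.2% on chromosome 9, and 49.7% and 52.6% on chromosome 8. How these shares relate to the called genes was not tested.

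**Figure D4:**
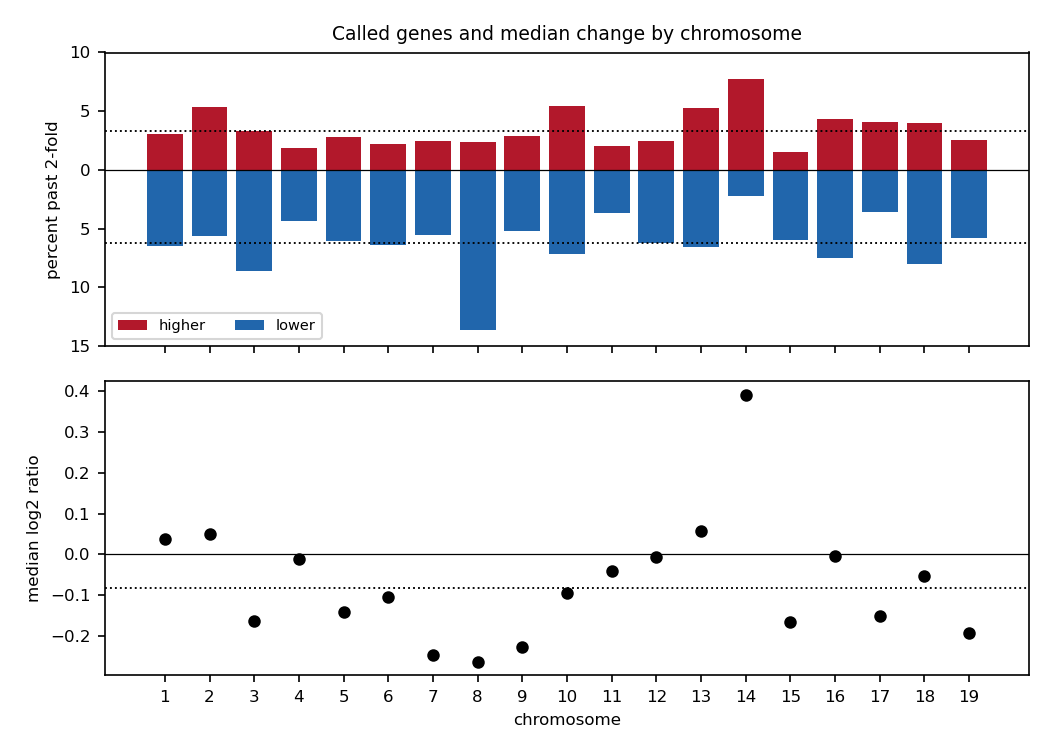
Top, percent of each autosome's tested genes that were higher (red, upward) or lower (blue, downward) by at least 2-fold in XiΔXist, with dotted lines at 3.35% and 6.19% for all genes; bottom, median log2 ratio of each autosome, with a dotted line at the median of all genes, -0.08. Chromosome 8 stands out for lower genes (13.6%) and chromosome 14 for higher genes (7.78%) and the highest median (0.39).

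On chromosome 8, 36 of the 69 lower genes lay in a single stretch. Running medians over 15 neighbouring tested genes, chosen after the ratios had been seen, were at least 0.6 away from 0 in 24 stretches with 551 genes, and the one with the most tested genes lies at chr8:104511028-116921455, from Nae1 to Cmc2. Of its 77 tested genes 71 had a ratio below equality, 36 were lower by at least 2-fold (46.8%) and 2 higher, with a median log2 ratio of -0.92. In the rest of chromosome 8, 33 of 429 genes were lower (7.69%) and the median was -0.22. The stretch was picked by these same ratios, so the choice itself favours this contrast. Examples, named after their values were seen, are the clathrin adaptor subunit Ap1g1 (581 and 227 CPM in WT and XiΔXist), Ist1 of endosomal sorting (102 and 31.5 CPM), the pyrimidine synthesis enzyme Dhodh (32.5 and 13.7 CPM), the chromatin protein Cfdp1 (702 and 345 CPM) and the telomere protein Terf2ip (165 and 73.2 CPM). Of the reads of the stretch, 99.8% in WT and 99.8% in XiΔXist were assigned to 129, so the alleles could not be compared there.

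A different picture was seen at 3 neighbouring genes of chromosome 13, also named after their values were seen. Ccnh, the cyclin of the CDK-activating kinase, had 3258 reads in WT and 17434 in XiΔXist, the Ras GTPase activator Rasa1 1718 and 14086 reads and Cox7c 389 and 12628 reads. They were 4.7-fold higher (95% counting interval 4.53 to 4.88), 7.2-fold higher (95% counting interval 6.85 to 7.58) and 28.5-fold higher (95% counting interval 25.8 to 31.6). In WT their reads were almost wholly 129, with 2 CAST reads in each. In XiΔXist CAST reads numbered 10068, 9135 and 11164, and 129 reads were also more numerous than in WT (7366 against 3256 for Ccnh, 1464 against 387 for Cox7c). In shSCR both alleles were read as well, with 61 CAST reads and 77 of the 129 allele for Ccnh. Rasa1 had 198 and 174, and Cox7c 12 and 13. The level of Cox7c was 17.0 CPM in shSCR and 38.0 in shYY1, beside 20.8 in WT and 592 in XiΔXist. The hairpin pools are shallower, so their read counts alone do not show whether a gene was higher there than in WT. Gm22574, a tested gene inside Cox7c, had 81 reads in WT, all 129, and 193 in XiΔXist, of which 90 were CAST. Its log2 ratio was 0.92. The spans of Ccnh and Rasa1 also overlap, so reads of these genes may not be separate. Farther out, Tmem161b before them and Edil3 after them had log2 ratios of -0.06 and 0.50. Both were read from both alleles in both pools.

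**Figure D5:**
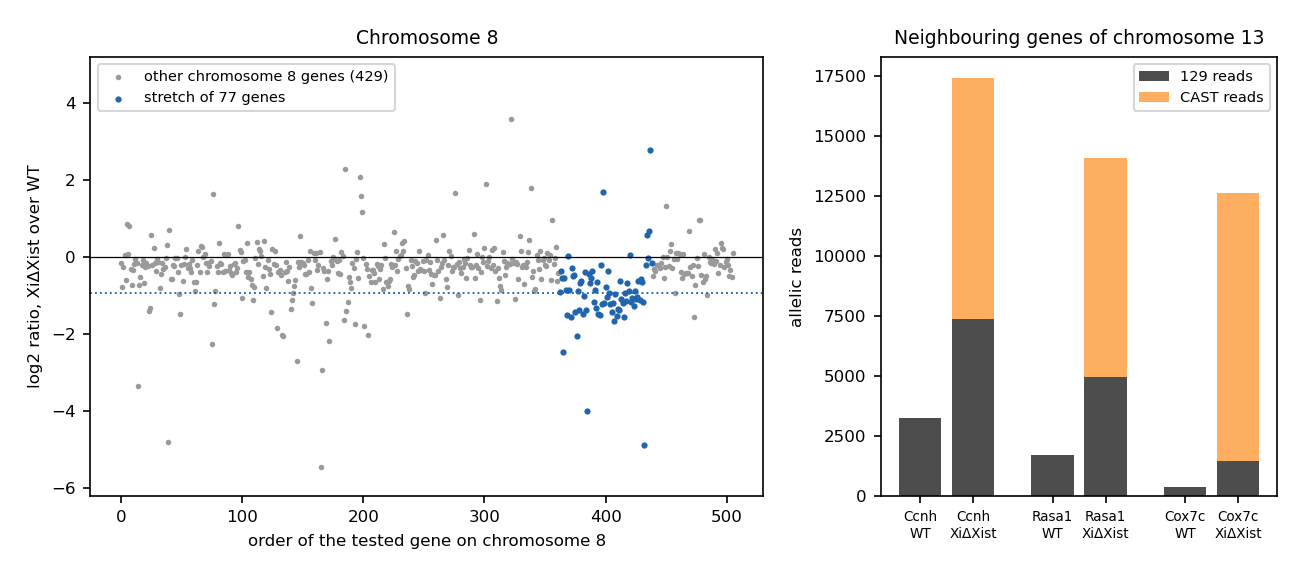
Left, log2 ratio of XiΔXist to WT for each tested gene of chromosome 8 in the order of the genes, with the 77 genes of the stretch in blue and their median of -0.92 as a dotted line; right, allelic reads of Ccnh, Rasa1 and Cox7c in WT and XiΔXist, split into 129 (grey) and CAST (orange). Nearly all genes of the stretch lie below equality, and CAST reads of the chromosome 13 genes are many in XiΔXist and 2 per gene in WT.

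Runs of at least 3 neighbouring tested genes called in the same direction numbered 26 with 106 lower genes and 10 with 31 higher genes. Some are families of related genes. The longest, with 9 genes, is the protocadherin beta run from Pcdhb14 (97 and 10 reads) to Pcdhb22 (1009 and 128 reads), all lower. On chromosome 9, Mmp13, Mmp1b (0 and 56 reads), Mmp3 and Mmp10 were all higher, on chromosome 5 the EGF receptor ligands Ereg, Areg and Btc (321 and 1487 reads), and on chromosome 14 the granule protease genes Mcpt8 (4 and 144 reads), Gzme (2 and 152 reads) and Gzmd (12 and 187 reads). The zinc finger genes Zfp354c, Zfp2 and Zfp354b on chromosome 11 were lower (1605 and 846 reads, 270 and 72 reads and 57 and 5 reads). The genes of these runs were named after their values were seen, and related neighbours can share reads.

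Pools of both genotypes held many genes read only as 129. Over 95% 129 reads were found in 42.3% of the higher genes in XiΔXist and in 39.5% of all tested genes there, and in 46.5% of the lower genes in WT against 39.8% of all. Over 95% CAST reads were found in 4.76% of the higher genes against 1.42%. Clec14a is an example, with a 129 share of 0% in XiΔXist.

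The share of lower genes was smaller among the most deeply read genes. Among genes with 50 to 99 reads, 2.73% were higher and 7.71% lower, with 500 to 1999 reads 4.07% and 7.14%, and with 10000 or more reads 3.48% and 3.37%. By type, 3.65% of protein-coding genes were higher and 6.26% lower, compared with 4.76% and 9.52% of 210 intergenic noncoding RNA genes, and 0.576% and 0.288% of 347 processed pseudogenes. At the 2-fold limit, Fzd5 (1.00) was counted as higher and Stambpl1 (0.9997) was not.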

How the data were processed

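RNA-seq was done on WT and XiΔXist MEFs and on XiΔXist MEFs with shSCR or shYY1 hairpins. The authors aligned the reads with TopHat to a genome masked at the strains' variant positions, removed reads of low mapping quality, assigned reads to the 129 or CAST allele with SNPsplit, and counted them per gene with featureCounts 1.6.3, the version in the submitters' processing notes. The deposited values are raw counts per Ensembl gene and allele, with the replicates of a group pooled in 1 column. Strand setting and annotation release are not given in the sources used here, so overlapping and antisense genes cannot be separated, and 55 of the 127 named genes overlap another gene.

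Gene names and positions came from GENCODE M21 (GRCm38) by Ensembl ID, which matched 45229 of 46078 IDs, and promoters from RefSeq (GRCm38.p6). Both alleles were summed and scaled to autosomal reads. Genes were called higher or lower when log2(CPM + 1) differed by at least 2-fold. Intervals are exact 95% Poisson intervals for CPM and exact binomial (Clopper-Pearson) intervals for ratios, and cover counting error only, since reads carried no molecular identifiers. A pool without reads was set to 3 counts. The scripts used Python 3.11.15, numpy 2.4.6, pandas 2.3.3, scipy 1.17.1 and matplotlib 3.10.9, and were tested on simulated data. Scaling factors for alternatives came from edgeR 4.0.16 and DESeq2 1.42.0 in R 4.3.3. Near copies were transcripts with at least 90% identity over at least 50% of the length by blastn 2.17.0.

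Named genes were the 15 protein-coding genes with the largest rise and the 15 with the largest fall among those with at least 200 reads and an interval wholly past 2-fold, up to 4 called members of each list, the 6 largest CPM differences in each direction, and Xist. Further members of a list are given to describe it, and some genes are not reported here. The question, the lists and the rule were chosen with earlier results of these data known.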

Additional observations from a re-analysis of the deposited data

How the results depend on the processing

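The 346 higher and 639 lower genes and the median log2 ratio of −0.083 depended on the settings as follows. The median was 0.0050 with TMM scaling (edgeR), 0.040 with median-of-ratios scaling (DESeq2), −0.111 with scaling to all reads, −0.060 with a pseudocount of 5 CPM, −0.098 for the 129 allele alone, −0.012 for the CAST allele alone, 0 after subtraction of each chromosome's median, −0.049 for genes with 500 or more reads, −0.062 for genes that overlap no other gene and −0.067 without chromosomes 5 and 9. Higher and lower genes numbered 215 and 384 with a pseudocount of 5 CPM, 189 and 284 with 500 or more reads, 162 and 244 for genes that overlap no other gene, and 103 and 255 at 4-fold. The last settings test fewer genes or ask for more by construction. For CAST alone, 352 genes were lower, among 5349 tested. Lower genes outnumbered higher ones under every setting. Of 123 named genes past 2-fold, 122 stayed past it with TMM, median-of-ratios and all-read scaling, 103 with a pseudocount of 5 CPM, 113 of 116 for 129 alone and 53 of 61 for CAST alone, where Lpl turned from −1.79 to 0.50. Calls were lost on 129 reads for Dcn, Egr2 and Cldn1, and on CAST reads for Cxcl5, Cxcl1, Cdk6, Srxn1, Map2, Col1a1 and Col4a1. Among all called genes, 139 higher and 209 lower genes had at least 50 reads of each allele in the pool where they were high. Both alleles passed 2-fold in 85 (61.2%) and 135 (64.6%) of these. The 129 allele alone passed in 25 and 46, and the CAST allele alone in 28 and 27. The cause was not tested. Genes with few reads set the limit, as 157 genes under 50 reads also passed 2-fold. No paired analysis was possible because the replicates are pooled in 1 column per group, and for the same reason no replicate could be left out.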
